A study of Mus musculus with 12 samples.

Results

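The fat genes examined here were Adipoq, Cfd, Retn, Lep, Plin1, Cidec, Cidea, Ucp1, Fabp4 and Aqp7, 10 genes taken by symbol from the 55885 genes of the expression table. They were followed heart by heart in 12 mouse hearts, 3 in each of 4 groups. The study asked how STING, an adaptor of the innate response to DNA in the cytosol, affects heart damage by the chemotherapy drug cisplatin (CDDP). The Saline group held wild-type mice (C57BL/6 in the labels, C57BL/6J in the methods) without cisplatin, which the labels call untreated and the methods describe as injected with saline. The CDDP group held wild-type mice given cisplatin intraperitoneally at 6 mg/kg on days 1, 8 and 15. The STING-/- and STING-/-+CDDP groups held mice of the same strain and of the genotype Tmem173-/-, the older symbol for the gene of STING, without and with the same injections. All mice were male and 8 weeks old at the start, and hearts were collected on day 22. The gene is inactivated in the whole animal, so the groups do not separate heart muscle from fat or blood cells. The labels give heart as the tissue and do not say which chambers or how much of the surrounding fat were taken.

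White adipocytes store triglyceride in a single large lipid droplet coated by perilipin 1 and secrete hormones such as adiponectin and leptin. Brown adipocytes hold many small droplets and burn fatty acids for heat through the uncoupling protein UCP1. Fat lies on the surface of the heart and around the great vessels, mostly near the atria and the grooves between the chambers in small amounts in the mouse, while heart muscle and capillary endothelium also take up fatty acids and handle lipid droplets of their own.

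Expression was given as TPM, in which reads are divided by gene length and every heart has an equal total, so levels of different genes can be set side by side. Read numbers are lost in this unit, and the depth of the hearts is not known. Each heart had 19680 to 21024 genes above 0. Differences between groups are on the scale of log2(TPM + 1), in which the added 1 makes changes of low genes smaller than they are. They were tested with limma over the 13815 genes that reached 1 TPM in 3 or more hearts, and a gene is called where its adjusted p was under 0.05. Of the 10 members 8 passed this filter, while Ucp1 and Lep did not and were compared with an exact permutation test, whose smallest two-sided p for 3 hearts against 3 is 0.10. Sting1, the targeted gene, was listed at 6.50 to 12.3 TPM in the Saline hearts, 5.62 to 22.1 in the CDDP hearts, 2.87 to 5.96 in the STING-/- hearts and 3.37 to 4.67 in the STING-/-+CDDP hearts, and was thus above 0 in the knockout hearts but lower than in wild-type hearts of the same treatment. All 12 hearts expressed the cardiomyocyte markers, with a summed level of 27943 to 55969 TPM over the 10 listed markers other than Nppa and Myl7.

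The hearts differed in the RNA of atrial genes before any comparison of groups, while the amount of atrial tissue in each was not measured. Myl7, the atrial myosin light chain, was at 5.68, 6537 and 2.48 TPM in the 3 Saline hearts, in the order of their numbers. It lay between 86.3 and 1778 TPM in the CDDP hearts, between 393 and 2090 in the STING-/- hearts and between 46.4 and 1685 in the STING-/-+CDDP hearts. Saline heart 2 therefore stood apart from Saline hearts 1 and 3, and Nppa, the atrial natriuretic peptide, gave the same picture with 25687 TPM against 299.7 and 333. For the comparisons with the Saline hearts, values without Saline heart 2 are also given below. A change in the number of fat cells and a change in RNA per fat cell cannot be told apart in these samples of whole tissue.

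Promoter windows of 300 bases, from 250 before to 50 after a transcription start, were read from RefSeq (GRCm38.p6) for the 8 members that its table holds, with 10 windows in all. They are shown for Adipoq and for Plin1 and Lep, the members with the highest Pearson's r with Adipoq given below. The brown fat gene Ucp1 and Aqp7, which differed with cisplatin, are shown too. Capitals mark the letters AGGTCA, or TGACCT on the other strand, to which nuclear receptors such as PPARG bind, and TTNNGCAA, or TTGCNNAA on the other strand, to which C/EBP factors bind. The windows lie on chr7:79732727-79733026 (minus strand) for Plin1, chr6:29059971-29060270 (plus) for Lep, chr16:23146286-23146585 (plus) for Adipoq, chr8:83290098-83290397 (plus) for Ucp1 and chr4:41047913-41048212 (minus) for Aqp7.
Plin1: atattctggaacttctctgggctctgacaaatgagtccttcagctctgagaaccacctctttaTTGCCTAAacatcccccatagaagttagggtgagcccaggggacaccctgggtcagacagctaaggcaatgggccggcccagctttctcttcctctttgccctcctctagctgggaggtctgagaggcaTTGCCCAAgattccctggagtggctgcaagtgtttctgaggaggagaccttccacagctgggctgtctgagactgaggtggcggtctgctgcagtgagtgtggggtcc
Lep: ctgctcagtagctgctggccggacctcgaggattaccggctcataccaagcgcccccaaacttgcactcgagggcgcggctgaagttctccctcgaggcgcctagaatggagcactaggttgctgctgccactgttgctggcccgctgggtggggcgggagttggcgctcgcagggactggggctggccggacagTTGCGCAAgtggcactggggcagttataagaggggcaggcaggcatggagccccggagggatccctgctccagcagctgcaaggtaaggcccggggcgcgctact
Adipoq: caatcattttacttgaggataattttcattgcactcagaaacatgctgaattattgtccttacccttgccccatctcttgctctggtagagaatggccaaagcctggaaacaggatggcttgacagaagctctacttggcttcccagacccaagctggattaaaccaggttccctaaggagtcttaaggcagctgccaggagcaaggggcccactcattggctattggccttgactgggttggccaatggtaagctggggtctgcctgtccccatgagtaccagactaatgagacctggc
Ucp1: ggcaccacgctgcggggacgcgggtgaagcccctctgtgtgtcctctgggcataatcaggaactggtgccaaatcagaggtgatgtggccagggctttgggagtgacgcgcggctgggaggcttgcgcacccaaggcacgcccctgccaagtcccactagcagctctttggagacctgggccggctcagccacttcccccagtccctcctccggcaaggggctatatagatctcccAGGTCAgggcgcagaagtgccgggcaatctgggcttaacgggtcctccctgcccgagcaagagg
Aqp7: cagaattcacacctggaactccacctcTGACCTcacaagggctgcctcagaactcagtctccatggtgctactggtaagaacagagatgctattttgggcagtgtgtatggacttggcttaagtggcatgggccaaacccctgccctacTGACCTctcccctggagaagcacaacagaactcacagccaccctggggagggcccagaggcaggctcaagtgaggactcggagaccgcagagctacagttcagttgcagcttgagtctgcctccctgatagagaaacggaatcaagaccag
The window of Plin1 held 2 matches to TTNNGCAA and that of Lep held 1, as did 1 of the 2 windows of Cidec. The window of Ucp1 held 1 match to AGGTCA and the Aqp7 window shown held 2, of which 1 also lies in the overlapping window of its other start. The windows of Adipoq, Cfd and Retn held neither motif. Among 32851 promoter windows of the same length, 16.3% held AGGTCA and 10.8% held TTNNGCAA, and no overlap between the motifs occurred in the windows shown.

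Adipoq encodes adiponectin, the hormone most specific to adipocytes (ENSMUSG00000022878, GRCm38 chromosome 16 from 23146536 to 23158028). Its level was 0.36, 8.19 and 0.08 TPM in the Saline hearts and 0.32, 2.75 and 6.83 TPM in the CDDP hearts. It was 14.4, 11.7 and 5.13 TPM in the STING-/- hearts and 3.13, 4.94 and 3.88 TPM in the STING-/-+CDDP hearts. Saline hearts 1 and 3 and CDDP heart 1 were thus all under 1 TPM, and the other 9 hearts were above 2 TPM. The 3 low hearts were separated from the others by a gap of 1.46 on the log2 scale, against at most 0.467 between any other neighbours.

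The other secreted members had the same low hearts. Cfd, which encodes adipsin, a serine protease of the alternative complement pathway (ENSMUSG00000061780, chromosome 10 from 79890853 to 79892655), was the most abundant fat-restricted member. It stood at 2.06, 67.8 and 0.19 TPM in Saline hearts, 8.00, 41.8 and 109 TPM in the CDDP hearts, 73.2, 99.8 and 38.4 TPM in the STING-/- hearts and 32.8, 46.7 and 34.7 TPM in the STING-/-+CDDP hearts. Retn is the gene of resistin, an adipocyte hormone in mice (ENSMUSG00000012705, chromosome 8 from 3655770 to 3660110). It had 0.08, 4.25 and 0.00 TPM in Saline, 0.48, 2.79 and 2.61 TPM in CDDP, 5.77, 6.62 and 2.41 TPM in STING-/- and 1.96, 1.35 and 2.79 TPM in STING-/-+CDDP hearts. Both genes had their 3 lowest values in Saline hearts 1 and 3 and CDDP heart 1. Lep, the gene of the satiety hormone leptin (ENSMUSG00000059201, chromosome 6 from 29060220 to 29073877), was the lowest of the secreted members and reached at most 0.57 TPM, in STING-/- heart 2. Its level was 0.00, 0.28 and 0.01 TPM in Saline, 0.39, 0.57 and 0.09 TPM in STING-/- and 0.05, 0.05 and 0.04 TPM in STING-/-+CDDP hearts. Lep was listed at 0 in all 3 CDDP hearts, including CDDP hearts 2 and 3, in which Adipoq and Cfd were present.

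Of the genes of the lipid droplet surface, Plin1 and Cidec followed the secreted genes and Cidea did not. Plin1 encodes perilipin 1, the droplet coat of mature adipocytes (ENSMUSG00000030546, chromosome 7 from 79720218 to 79732903). Its level was 0.27, 2.12 and 0.00 TPM in Saline, 0.02, 0.69 and 1.47 TPM in CDDP, 3.81, 7.83 and 2.29 TPM in STING-/- and 0.86, 1.95 and 1.36 TPM in STING-/-+CDDP hearts. Every STING-/- heart was above every other heart. Cidec encodes a protein of droplet contact sites through which lipid passes from small to large droplets (ENSMUSG00000030278, chromosome 6 from 113424634 to 113435760). It was listed at 0.03, 9.09 and 0.07 TPM in Saline, 0.71, 5.89 and 15.8 TPM in CDDP, 14.5, 14.5 and 4.18 TPM in STING-/- and 6.44, 6.15 and 6.76 TPM in STING-/-+CDDP hearts. Its highest value was in CDDP heart 3, which was also the highest heart for Cfd. Cidea, a related droplet protein abundant in brown fat (ENSMUSG00000024526, chromosome 18 from 67343604 to 67367785), was present in every heart at 23.4, 18.9 and 21.7 TPM in Saline, 33.9, 50.7 and 35.1 TPM in CDDP, 32.7, 29.9 and 25.5 TPM in STING-/- and 32.0, 36.3 and 37.2 TPM in STING-/-+CDDP hearts. Saline heart 3, with 0.08 TPM of Adipoq, had 21.7 TPM of Cidea, and Saline heart 2, with 8.19 TPM of Adipoq, had 18.9. The antisense gene B430212C06Rik overlaps Cidea on the opposite strand. The counting is not stated to use strand, so it is not known whether reads from the overlap were kept apart.

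Ucp1, the uncoupling protein that defines brown and beige adipocytes (ENSMUSG00000031710, chromosome 8 from 83290352 to 83298452), was at 13.9 and 26.2 TPM in STING-/- hearts 1 and 2. It was listed at 0.00 in STING-/- heart 3 and at no more than 0.21 TPM in the 9 hearts of the other groups. The STING-/- group therefore overlapped each other group, and the exact permutation p against Saline was 0.40 (two-sided, difference of 2.84 on the log2 scale, n = 3 per group). Of the other 20 brown fat genes listed, Otop1, a proton channel, was at 0.39 and 0.33 TPM in the same 2 hearts and at most 0.04 elsewhere. Slc27a2, a fatty acid transport protein, was at 0.18 and 0.23 TPM there and at most 0.09 elsewhere. Letmd1 was also highest in these 2 hearts, at 7.03 and 9.31 TPM, but was present at 4.17 to 6.69 TPM elsewhere. The remaining genes of the list did not single out these hearts. Dio2, the deiodinase that activates thyroid hormone, was at 0.75 and 1.76 TPM there and highest in CDDP heart 1 at 3.16 TPM, Lhx8 was highest in STING-/-+CDDP heart 1 at 0.20 TPM, Prdm16 was highest in Saline heart 3 at 7.99 TPM, and Zic1 reached at most 0.06 TPM in any heart. Otop1, Slc27a2, Letmd1, Dio2, Lhx8, Prdm16 and Zic1 were named after their values were seen. Cox7a1, a subunit of cytochrome c oxidase in brown fat and heart, was at 1446 to 2801 TPM in every heart and so does not separate brown fat from heart muscle.

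Fabp4 and Aqp7 are textbook adipocyte genes that were high in Saline hearts 1 and 3, where adiponectin was nearly absent, and low in CDDP heart 1, where it was nearly absent too. Fabp4 encodes the fatty acid binding protein aP2, which capillary endothelium also expresses (ENSMUSG00000062515, chromosome 3 from 10204088 to 10208576). Its level was 1397, 898 and 1838 TPM in Saline, 625, 684 and 457 TPM in CDDP, 1336, 1035 and 786 TPM in STING-/- and 794, 854 and 921 TPM in STING-/-+CDDP hearts. The highest of the 12 values was in Saline heart 3, the heart with the least Adipoq. Aqp7 encodes an aquaglyceroporin through which glycerol leaves adipocytes and enters heart muscle (ENSMUSG00000028427, chromosome 4 from 41033074 to 41048139). Its level was 25.5, 10.1 and 23.2 TPM in Saline, 0.33, 2.24 and 0.76 TPM in CDDP, 14.5, 12.3 and 10.3 TPM in STING-/- and 4.38, 7.03 and 8.90 TPM in STING-/-+CDDP hearts. Saline hearts 1 and 3 held the most Aqp7, and every CDDP heart held less than every heart of the other groups.

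**Figure D1:**
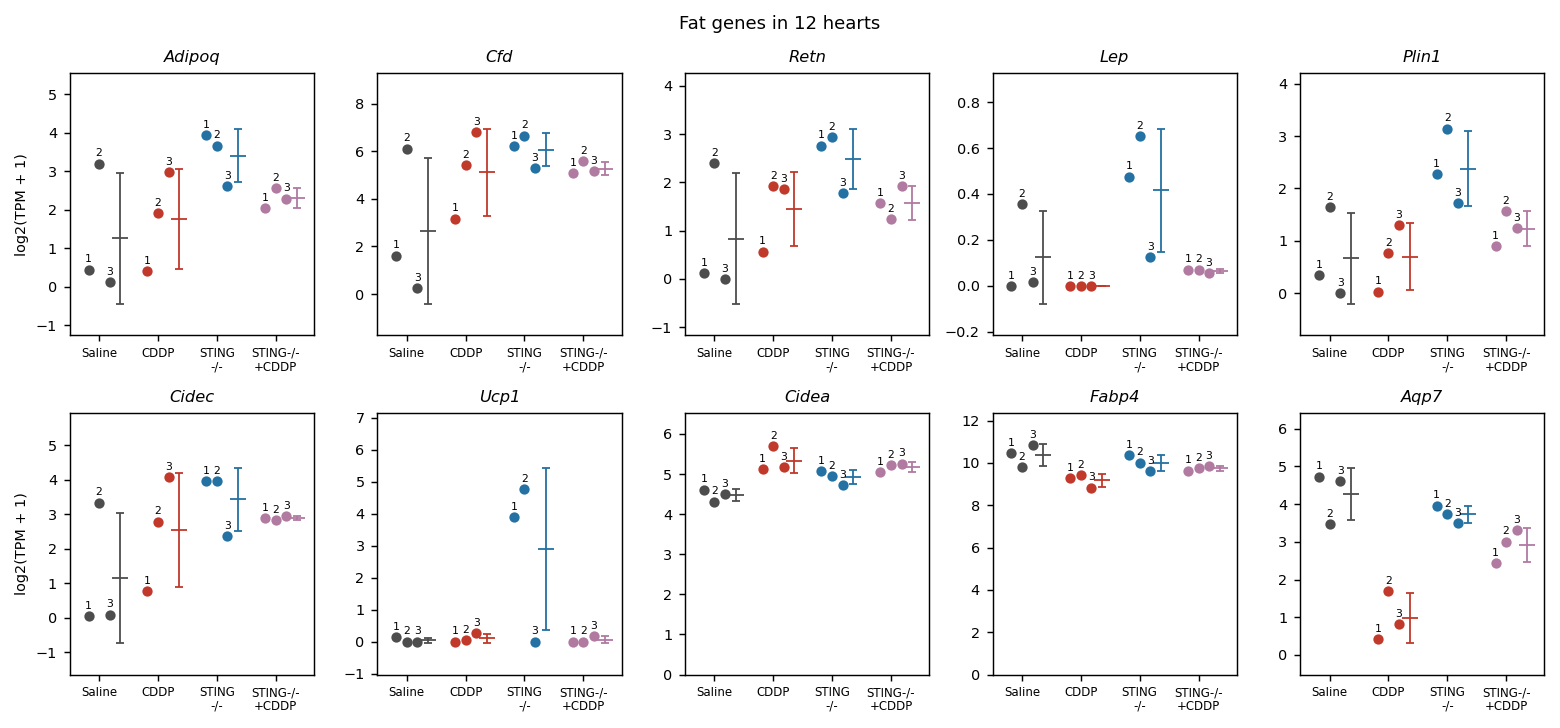
Level of each of the 10 members as log2(TPM + 1) in 12 hearts, numbered 1 to 3 within the 4 groups, with the mean and SD of each group (n = 3) to the right of its points. Adipoq, Cfd, Retn, Plin1 and Cidec are lowest in Saline hearts 1 and 3 and CDDP heart 1, Ucp1 is present in STING-/- hearts 1 and 2, and Aqp7 is lowest in the CDDP group.

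The order of the group means followed these hearts. For Adipoq it was 10.4 ± 4.76 TPM (SD, n = 3) in STING-/-, 3.98 ± 0.909 (SD, n = 3) in STING-/-+CDDP, 3.30 ± 3.29 (SD, n = 3) in CDDP and 2.88 ± 4.60 (SD, n = 3) in Saline hearts, and the values of the last 3 groups overlapped. Plin1, Retn and Cfd were also highest on average in STING-/- hearts, at 4.64 ± 2.86, 4.93 ± 2.23 and 70.5 ± 30.8 TPM (SD, n = 3), and so was Cidec at 11.1 ± 5.96 TPM (SD, n = 3). Aqp7 had the order Saline (19.6 ± 8.33), STING-/- (12.4 ± 2.11), STING-/-+CDDP (6.77 ± 2.27) and CDDP (1.11 ± 1.00 TPM, SD, n = 3), of which only the neighbours Saline and STING-/- overlapped. For Fabp4 the order was the same, with 1378 ± 470, 1052 ± 275, 856 ± 63.5 and 589 ± 118 TPM (SD, n = 3), and only STING-/-+CDDP and CDDP did not overlap among neighbours. Cidea had the reverse order, from 39.9 ± 9.35 in CDDP through 35.2 ± 2.79 in STING-/-+CDDP and 29.4 ± 3.60 in STING-/- to 21.3 ± 2.30 TPM (SD, n = 3) in Saline hearts, and among neighbours only STING-/- and Saline did not overlap.

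The relation of each member to Adipoq was taken over the 9 hearts above the gap, since the 3 low hearts form a cluster of their own. With exact permutation tests adjusted over the 9 relations by the Benjamini-Hochberg method, 6 of 9 members varied with Adipoq. The permutations moved hearts freely across the 4 groups. Their p therefore do not separate differences between groups from variation among hearts of the same group. The share of all tested genes that varied with Adipoq over these hearts was not taken. The count therefore does not set the members apart from other genes. Pearson's r over the 9 hearts was 0.857 for Plin1 (exact adjusted p = 0.0174), 0.851 for Lep (0.0174), 0.797 for Ucp1 (0.0275), 0.790 for Retn (0.0275), 0.786 for Cfd (0.0275) and 0.772 for Cidec (0.0275). Spearman's rho was 0.900 for Plin1 (exact adjusted p = 0.0183) and between 0.505 and 0.750 for the other 5, with exact adjusted p between 0.0765 and 0.167. Fabp4 and Aqp7 gave r of 0.497 and 0.493 (exact adjusted p = 0.196 for both), with rho of 0.567 and 0.700, and Cidea gave r of -0.464 (exact adjusted p = 0.211) with rho of -0.567. Leaving out STING-/- hearts 1 and 2, the farthest from the median of Adipoq, left r at 0.791 for Plin1, 0.758 for Cfd, 0.623 for Lep, 0.550 for Cidec, 0.400 for Retn and 0.190 for Ucp1. The relation of Ucp1 thus rested on those hearts, and those of Retn, Cidec and Lep no longer held (exact p of 0.384, 0.204 and 0.116). For Plin1 and Cfd the exact p was 0.0375 and 0.0454. Cidea gave r of -0.735 without those hearts (exact p = 0.0546), of the opposite sign. These p are not adjusted over the 9 relations, unlike those above, so no relation is counted as passing without the 2 hearts. After centring on the group means, r was 0.936 for Cidec, 0.918 for Cfd, 0.736 for Ucp1, 0.733 for Plin1, 0.658 for Lep and 0.530 for Retn, and 3 of 9 members passed. Saline heart 2 was the only Saline heart among the 9, so centring left nothing of it. CDDP hearts 2 and 3 became mirror images, and the permutation again ignored the groups. The centred values and their count are therefore a description and not a test.

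**Figure D2:**
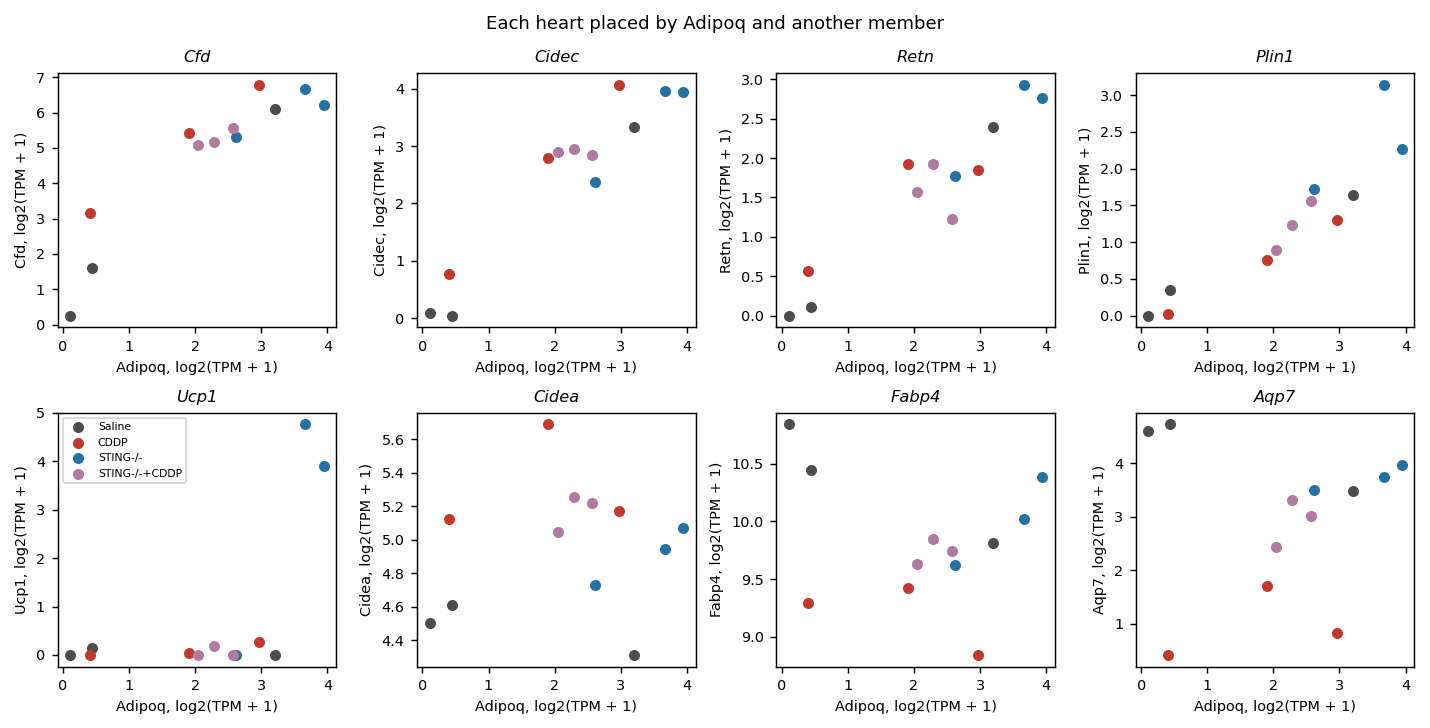
Each of the 12 hearts placed by its Adipoq level (x axis) and the level of another member (y axis), both as log2(TPM + 1), with a color for each group. Cfd, Cidec, Retn and Plin1 are low in the 3 hearts under 1 TPM of Adipoq and higher in the other 9, whereas Fabp4 and Aqp7 are highest in Saline hearts with little Adipoq, and Cidea is present in every heart.

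Outside the members, the 8 tested genes whose log2(TPM + 1) followed Adipoq most closely over the 12 hearts were Gtdc1 (Pearson's r 0.937), Pck1 (0.936), Cyp2e1 (0.935), Car3 (0.923), Paqr6 (0.914), Meis2 (0.902), Rbp4 (0.898) and Hyal1 (0.884). These values describe 12 hearts that fall into a low cluster of 3 and a higher one of 9, and carry no test. Pck1, Car3 and Rbp4 are on the list of other adipocyte genes, and Pck1 encodes the enzyme that begins glycerol synthesis in fat. Car3, the carbonic anhydrase abundant in adipocytes, was at 0.72, 28.5 and 0.30 TPM in Saline, 0.08, 1.51 and 3.32 TPM in CDDP, 38.8, 40.9 and 12.9 TPM in STING-/- and 5.04, 9.66 and 8.20 TPM in STING-/-+CDDP hearts. CDDP heart 3, with 6.83 TPM of Adipoq, held less Car3 than STING-/-+CDDP heart 1, with 3.13 TPM of Adipoq. Cyp2e1, a cytochrome P450, was at 0.40, 30.9 and 0.32 TPM in Saline and 1.59, 18.3 and 44.9 TPM in CDDP hearts, so that in CDDP heart 3 it exceeded every other heart.

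Markers of atrial tissue and of the mesothelium, the cell layer that covers the heart, moved in part with the fat genes. The summed level of the 4 secreted members was 2.50, 80.5 and 0.280 TPM in Saline, 8.80, 47.3 and 119 TPM in CDDP, 93.7, 119 and 46.1 TPM in STING-/- and 37.9, 53.1 and 41.5 TPM in STING-/-+CDDP hearts. The 10 mesothelial and epicardial markers summed to 46.7, 183 and 30.1 TPM, to 34.0, 67.7 and 108 TPM, to 88.1, 194 and 66.0 TPM and to 125, 26.7 and 65.5 TPM in the same hearts. None of these 10 markers was at 0 throughout a group. Saline heart 2 was high for all 3 signals and Saline hearts 1 and 3 were low for all 3, whereas STING-/-+CDDP heart 2 had 26.7 TPM of mesothelial markers with 4.94 TPM of Adipoq. CDDP heart 1 had little Adipoq with 486 TPM of Myl7, above the 202 and 46.4 TPM of STING-/-+CDDP hearts 2 and 3. The part of these tissues in the results below was not tested beyond a fit with Myl7 as a covariate, which was added after the values were seen.

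Between CDDP and Saline hearts, Aqp7 and Fabp4 fell, Cidea rose, and the other 5 tested members did not pass. Over all tested genes 18.9% were called in this comparison, 8.52% higher and 10.4% lower, against 3 of the 8 tested members, 1 higher and 2 lower. Aqp7 was 9.79-fold lower on this scale, with a log2 fold change of -3.29 (SE 0.38, 95% confidence interval -4.13 to -2.45, limma adjusted p = 0.00078). Fabp4 changed by -1.18 (SE 0.26, adjusted p = 0.0104), and Cidea by 0.85 (SE 0.17, adjusted p = 0.00706). With Adipoq as a covariate, also added after the values were seen, these differences were -3.23, -1.10 and 0.85 (adjusted p of 0.00105, 0.00973 and 0.00809). The groups did not overlap for these 3 members, which held for 32.0% of all tested genes. Fitted to the 6 compared hearts alone, the adjusted p of Cidea was 0.0510.

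The fat-restricted members gave differences with wide confidence intervals. Cfd was 2.47 higher with CDDP on the log2 scale (95% confidence interval -0.25 to 5.18, adjusted p = 0.186), Cidec 1.38 higher (-0.62 to 3.39, adjusted p = 0.317), Retn 0.61 higher (-0.69 to 1.92, adjusted p = 0.511), Adipoq 0.51 higher (-1.19 to 2.21, adjusted p = 0.691) and Plin1 0.03 higher (-1.0 to 1.07, adjusted p = 0.970). Without Saline heart 2 the count of called members was 6 rather than 3, because Cfd (4.19, adjusted p = 0.00715), Cidec (2.47, adjusted p = 0.0434) and Retn (1.39, adjusted p = 0.0493) passed as higher with CDDP. Aqp7 (-3.69, adjusted p = 0.000674), Fabp4 (-1.46, adjusted p = 0.00293) and Cidea (0.77, adjusted p = 0.0192) stayed called by limma. Adipoq (1.48, adjusted p = 0.112) and Plin1 (0.52, adjusted p = 0.430) did not pass. In that fit 2559 of all 13688 tested genes were called, 55.5% of them higher, against 45.1% higher with all 12 hearts. Saline heart 2 had the highest Myl7 of the 12, and the 2 Saline hearts left are those with almost no Myl7. With Myl7 as a covariate the same 3 members were called as without it, and Adipoq and Plin1 turned to -0.12 and -0.29. The median difference of the 8 tested members was 0.56, beside -0.00 over all tested genes. Lep, at 0 in every CDDP heart, overlapped with the Saline hearts (exact permutation p = 0.40, n = 3 per group), and so did Ucp1 (exact p = 0.70).

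Markers of other cells that can express Fabp4 also moved with CDDP, where 18.9% of all tested genes were called. The 12 endothelial markers summed to 974, 869 and 969 TPM in Saline and 704, 690 and 758 TPM in CDDP hearts, with no gene at 0, and 4 of the 12 fell. These were Kdr, the receptor of VEGF (-1.39, adjusted p = 0.0194), the junction protein gene Cdh5 (-1.0, adjusted p = 0.0167), Tie1 (-0.80, adjusted p = 0.0151) and Egfl7 (-0.68, adjusted p = 0.0438), where Egfl7 was named after its value was seen. Among those not called, Flt1 (0.40, adjusted p = 0.267), Esam (0.14, adjusted p = 0.713), Pecam1 (0.03, adjusted p = 0.937) and Cldn5 (0.03, adjusted p = 0.971) gave positive differences, and these 4 were also named after their values were seen. Without Saline heart 1, 0 of the 12 markers were called by limma and 5 had an unadjusted p under 0.05. Macrophage markers, which include cells that can express Fabp4, fell for 7 of 10 genes, among them Csf1r (-1.81, adjusted p = 0.00854), Mrc1 (-1.72, adjusted p = 0.00189) and Adgre1 (-1.55, adjusted p = 0.0243). Their sum was 548 to 768 TPM in Saline and 191 to 354 TPM in CDDP hearts. The part of either cell type in the fall of Fabp4 was not tested.

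**Figure D3:**
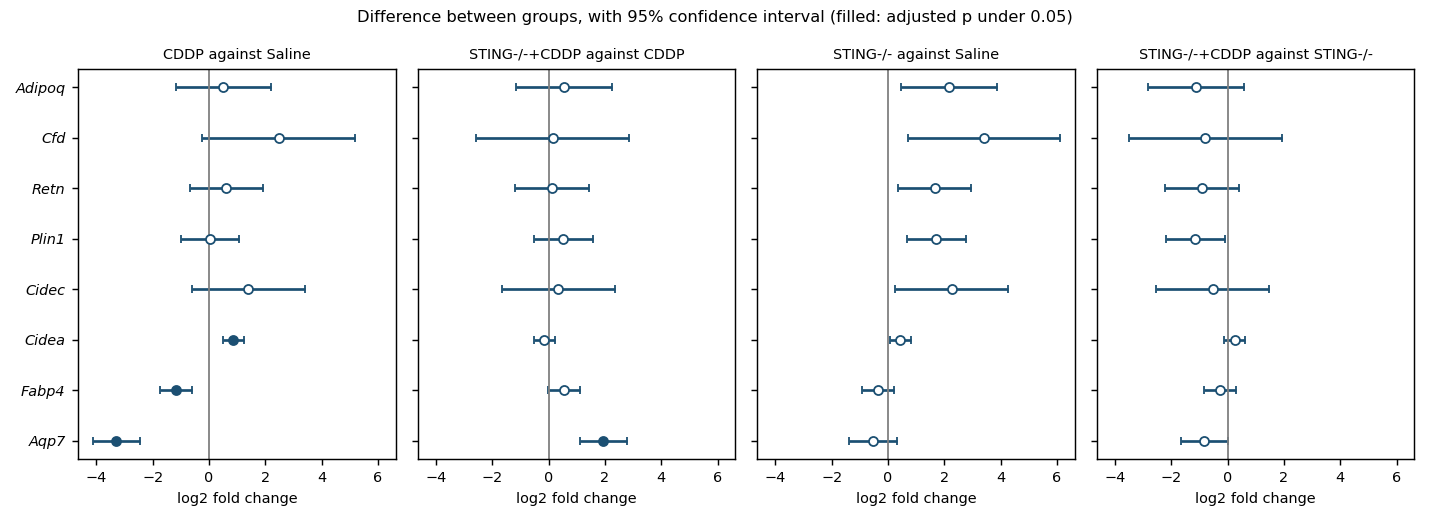
Difference between groups in log2(TPM + 1) for the 8 tested members in 4 comparisons, as the limma estimate with its 95% confidence interval, filled where the adjusted p was under 0.05. Aqp7, Fabp4 and Cidea have narrow intervals and pass in the first comparison, Aqp7 passes in the second, and Cfd has the widest intervals throughout.

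Between STING-/-+CDDP and CDDP hearts, Aqp7 was the 1 called member of the 8 tested, where 1.22% of all tested genes were called. It was 1.94 higher on the log2 scale in the STING-/-+CDDP hearts (SE 0.38, 95% confidence interval 1.10 to 2.78, adjusted p = 0.0421), with 4.38 to 8.90 TPM against 0.33 to 2.24. Over 24 alternatives its adjusted p ranged from 0.00649 to 0.157 and was under 0.05 in 11, while the difference stayed between 1.58 and 2.79. The call was lost in 9 of the 12 fits that left out a single heart and was kept without Saline heart 1, Saline heart 2 or CDDP heart 2. Fabp4 was 0.56 higher (-0.01 to 1.12, adjusted p = 0.259) and its groups did not overlap either, as for 22.7% of all tested genes. Cidea differed by -0.16 (-0.53 to 0.22, adjusted p = 0.657). The fat-restricted members differed by 0.13 to 0.54, each less than its SE except Plin1 (0.53, SE 0.47, adjusted p = 0.569), and for Adipoq (95% confidence interval -1.16 to 2.24) and Cfd (-2.57 to 2.86) the intervals leave room for large changes either way. The median of the 8 members was 0.44, beside -0.09 over all tested genes. Lep was at 0.04 to 0.05 TPM against 0 in every CDDP heart (exact permutation p = 0.10, n = 3 per group, the smallest possible), a level for which TPM does not tell how many reads there were. The CDDP hearts enter both this comparison and the one with Saline.

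Between STING-/- and Saline hearts no member was called by limma, where 0.0724% of all tested genes were. An unadjusted p under 0.05 was found for 6 of the 8 members, and for 510 of all 13815 tested genes. Adipoq, Cfd, Cidec, Plin1 and Retn were all low in Saline hearts 1 and 3, so these members do not count as independent results. Cfd was 3.40 higher in STING-/- hearts (SE 1.24, adjusted p = 1.00), Cidec 2.27 higher (SE 0.92, adjusted p = 1.00), Adipoq 2.16 higher (SE 0.78, adjusted p = 1.00), Plin1 1.71 higher (SE 0.47, adjusted p = 0.683) and Retn 1.65 higher (SE 0.60, adjusted p = 1.00). The groups did not overlap for Plin1 and for Cidea, which was 0.44 higher (SE 0.17, adjusted p = 1.00), while 7.64% of all tested genes did not overlap. Saline heart 2 lay within the range of the STING-/- hearts for Adipoq, Cfd, Retn and Cidec, and without it the differences were 5.12 for Cfd, 3.36 for Cidec, 3.13 for Adipoq, 2.43 for Retn, 2.20 for Plin1 and 0.36 for Cidea, with no member called by limma (adjusted p between 0.0658 and 0.772). Fabp4 and Aqp7 differed by -0.36 and -0.53 (adjusted p = 1.00 for both), by -0.64 and -0.93 without Saline heart 2, and by 0.01 and 0.04 with Myl7 as a covariate. The median of the 8 members was 1.68, beside 0.00 over all tested genes. Lep gave an exact permutation p of 0.20 with overlapping groups (n = 3 per group).

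Between STING-/-+CDDP and STING-/- hearts no member was called by limma, where 0.934% of all tested genes were, and 1 member and 1860 of all tested genes had an unadjusted p under 0.05. Plin1 was lower by 1.14 (-1.14, SE 0.47, adjusted p = 0.319), Adipoq by 1.11 (-1.11, SE 0.78, adjusted p = 0.580) and Aqp7 by 0.82 (-0.82, SE 0.38, adjusted p = 0.383), and for these 3 the groups did not overlap, as for 24.2% of all tested genes. Retn differed by -0.91, Cfd by -0.79, Cidec by -0.53, Fabp4 by -0.27 and Cidea by 0.26, with adjusted p between 0.546 and 0.843. The median of the 8 was -0.80, beside -0.11 over all tested genes, a shift that scaling by the median of ratios moved to 0.01. Lep did not overlap (exact permutation p = 0.10, n = 3 per group), and Ucp1 did (exact p = 0.40).

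The change with CDDP was set against genotype as an interaction, which was called for 0.00724% of all tested genes and for no member by limma. An unadjusted p under 0.05 was found for 3 members and 1615 of all tested genes. The change of Aqp7 with CDDP was 2.47 less negative in STING-/- mice (SE 0.54, unadjusted p = 0.000733, adjusted p = 0.286). For Fabp4 the change was 0.92 less negative (SE 0.37, adjusted p = 0.386), and for Cidea it was lower by 0.60 (-0.60, SE 0.24, adjusted p = 0.391). The 5 fat-restricted members had interactions between -3.25 for Cfd and -1.18 for Plin1, with SE of 0.67 to 1.76. Without Saline heart 2 the interaction was 2.87 for Aqp7 (limma adjusted p = 0.0841), 1.20 for Fabp4 (0.153), -0.51 for Cidea (0.344) and -4.98 for Cfd (0.114), and again no member was called.

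The proportions among the fat-restricted genes were compared within the 9 hearts with at least 1 TPM of Adipoq, as a description without a test, since Adipoq chose the hearts. Cfd was present at 15.2 and 16.0 times the TPM of Adipoq in CDDP hearts 2 and 3, at 8.28 times in Saline heart 2, at 5.09, 8.53 and 7.49 times in the STING-/- hearts and at 10.5, 9.46 and 8.95 times in the STING-/-+CDDP hearts. The 2 CDDP hearts were thus above the other 7. For Cidec the ratio was 2.14 and 2.31 in those CDDP hearts, 1.11 in Saline heart 2, 0.815 to 1.24 in the STING-/- hearts and 1.24 to 2.06 in the STING-/-+CDDP hearts. Plin1 gave 0.251 and 0.215 in the CDDP hearts, the lowest of the 9, and 0.259 to 0.669 in the others. Lep was at 0 in the CDDP hearts, against 0.0342 times Adipoq in Saline heart 2, 0.0175 to 0.0487 in the STING-/- hearts and 0.0101 to 0.0160 in the STING-/-+CDDP hearts. Retn did not separate the groups, with ratios of 0.382 and 1.01 in the CDDP hearts and 0.273 to 0.719 in the others.

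**Figure D4:**
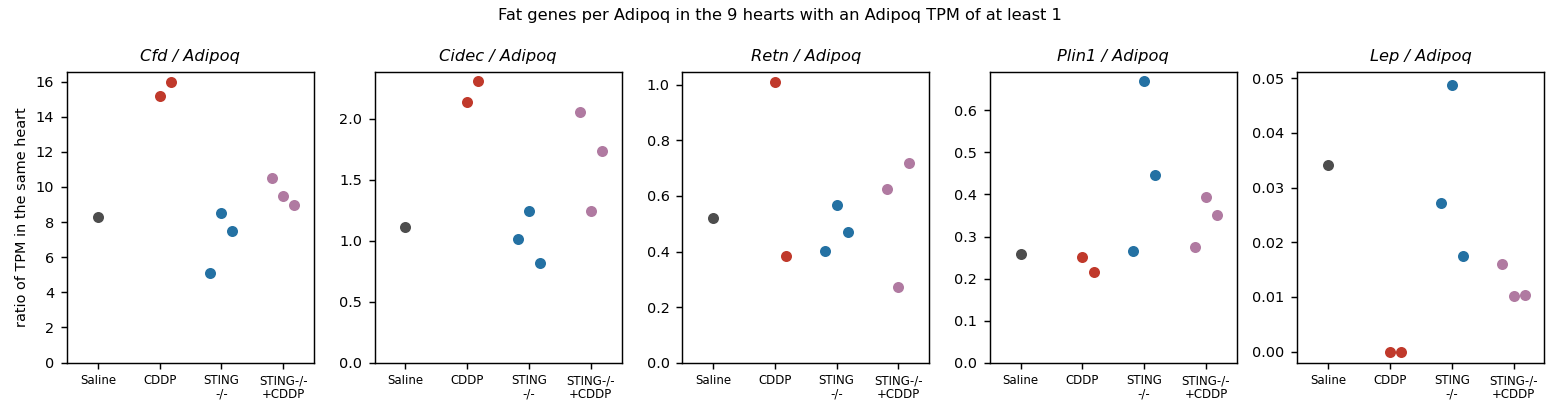
Ratio of the TPM of 5 fat-restricted genes to that of Adipoq in the same heart, for the 9 hearts with an Adipoq TPM of at least 1, by group, with 1 point per heart. In CDDP hearts 2 and 3 the ratios of Cfd (15.2 and 16.0) and Cidec (2.14 and 2.31) are the highest and those of Lep (0) and Plin1 the lowest.

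Genes of the lipid store outside the members gave a second view of lipid handling. Of 23 listed, 22 were tested and 5 were called between CDDP and Saline hearts, 1 higher and 4 lower, with a median of -0.18. This count is near the share over all tested genes, of which 18.9% were called in this comparison. Plin4, a droplet coat protein of adipocytes, heart and skeletal muscle, rose from 26.6, 57.5 and 45.1 TPM in Saline to 86.6, 194 and 183 TPM in CDDP hearts (log2 fold change 1.80, SE 0.32, adjusted p = 0.00384). G0s2, an inhibitor of the triglyceride lipase ATGL, fell from 57.7, 93.7 and 74.5 TPM to 18.5, 30.3 and 33.9 TPM (-1.43, SE 0.24, adjusted p = 0.00307). Mgll, which cleaves monoglycerides (-0.87, adjusted p = 0.0376), Gpat3, an acyltransferase of triglyceride synthesis (-0.85, adjusted p = 0.0313), and Fitm1, which acts in droplet formation in muscle (-0.79, adjusted p = 0.0258), were also lower and were named after their values were seen. In STING-/-+CDDP against CDDP hearts, where 1.22% of all tested genes were called, 3 of the 22 passed, all higher, with a median of 0.47. They were G0s2 (1.58, adjusted p = 0.0202) at 68.9 to 94.3 TPM, Plin5, the droplet coat protein of oxidative muscle (1.53, adjusted p = 0.0216), at 115 to 155 TPM against 35.5 to 69.2, and Gpam, the mitochondrial acyltransferase that starts triglyceride synthesis (1.40, adjusted p = 0.0450). Gpam was named after its value was seen. In the no-filter fit 0 of these 3 were called, and with single hearts left out 0 to 6 genes of the list were called by limma. The count was 0 without STING-/-+CDDP heart 2 or 3, with 6 genes at an unadjusted p under 0.05 in either fit by limma. Between CDDP and Saline hearts 2 to 7 genes were called with single hearts left out, and these were Plin4 and G0s2 alone without Saline heart 1 or 3.

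Genes of fatty acid uptake moved in both directions with CDDP. Of 11 tested of 12 listed, 1 rose and 2 fell, with a median of -0.16, where 18.9% of all tested genes were called. Lpl, the lipase that frees fatty acids from lipoproteins at the capillary wall, was at 768, 693 and 862 TPM in Saline and 1362, 1962 and 1884 TPM in CDDP hearts (1.15, SE 0.15, adjusted p = 0.00106). Fabp5, a fatty acid binding protein of endothelium and adipocytes, fell from 152, 127 and 107 TPM to 33.8, 46.6 and 41.1 TPM (-1.64, SE 0.21, adjusted p = 0.000935), as Fabp4 did. Fabp3, the form in heart muscle, was 0.63 lower (-0.63, SE 0.20, adjusted p = 0.0440), with 2118 to 4042 TPM in CDDP and 3994 to 4661 TPM in Saline hearts, which overlapped. None of the 11 was called between STING-/-+CDDP and CDDP hearts by limma, where 4 had an unadjusted p under 0.05.

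**Figure D5:**
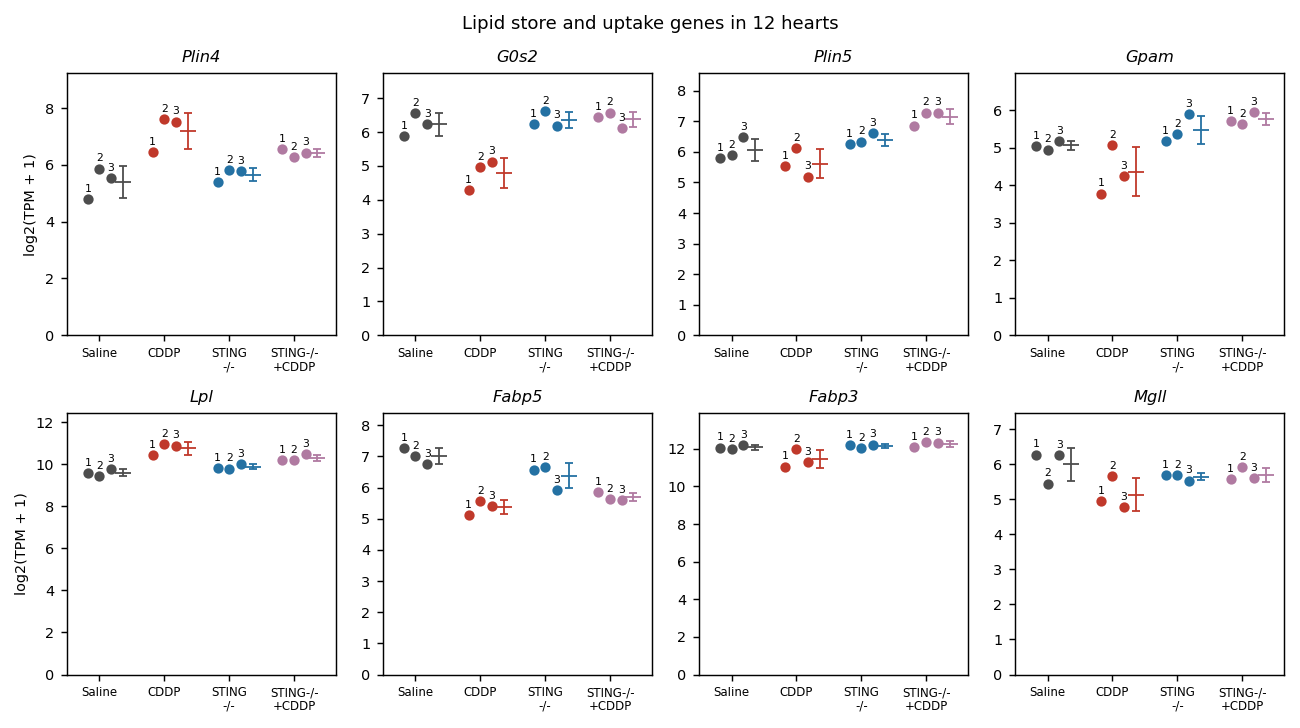
Level of 8 genes of lipid storage and uptake as log2(TPM + 1) in 12 hearts, numbered 1 to 3 within the 4 groups, with the mean and SD of each group (n = 3). Plin4 and Lpl are higher and G0s2 and Fabp5 lower in CDDP than in Saline hearts, and G0s2, Plin5 and Gpam are higher in STING-/-+CDDP than in CDDP hearts.

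Other adipocyte and brown fat genes gave few calls, while 18.9% of all tested genes were called between CDDP and Saline hearts. Of the 20 other adipocyte identity genes 14 were tested, and between CDDP and Saline hearts 1 was higher (median -0.01). It was Itgb3, an integrin subunit that platelets and several other cells also carry, at 0.89 to 1.85 TPM in Saline and 2.55 to 7.16 TPM in CDDP hearts (1.45, SE 0.32, adjusted p = 0.0109). The medians of the 14 genes were 0.37 in STING-/-+CDDP against CDDP, 0.36 in STING-/- against Saline and -0.41 in STING-/-+CDDP against STING-/- hearts, with 0 called by limma in each and 3, 4 and 2 at an unadjusted p under 0.05. Of 13 tested brown fat genes of 20 listed, 2 fell with CDDP (median -0.28), and both are also expressed in heart muscle. These were Cox7a1 (-0.60, SE 0.14, adjusted p = 0.0118) and Gk, the glycerol kinase (-0.51, SE 0.16, adjusted p = 0.0421), which uses the glycerol that Aqp7 carries. Of 13 tested genes of fatty acid synthesis 1 fell with CDDP, the elongase gene Elovl5 (-0.53, adjusted p = 0.0441), with a median of -0.04. The call of Elovl5 was lost in 8 of 12 fits without a single heart, and without Saline heart 1 neither Cox7a1 nor Gk was called by limma, where 2 brown fat genes had an unadjusted p under 0.05. No gene of these 3 lists was called by limma between STING-/-+CDDP and CDDP hearts, where 3, 4 and 2 had an unadjusted p under 0.05.

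The remaining marker lists describe what else moved with CDDP, where 18.9% of all tested genes were called. Of 12 cardiomyocyte markers 1 rose, Tnnt2 (0.56, adjusted p = 0.0137), and 2 fell, the cardiac actin gene Actc1 (-3.55, adjusted p = 0.00181) and the mitochondrial creatine kinase gene Ckmt2 (-0.94, adjusted p = 0.00771). Of 10 fibroblast and fat progenitor markers 4 fell, including Col1a1 (-2.36, adjusted p = 0.00879), Lum (-2.12, adjusted p = 0.0116) and Pi16 (-2.01, adjusted p = 0.0113), a marker of progenitors from which adipocytes can arise. Ckm, of the skeletal muscle list and also a heart gene, fell (-0.56, adjusted p = 0.0355), while 0 of 9 tested mesothelial markers, with Msln, Upk3b and Krt19 the highest, were called by limma and 0 had an unadjusted p under 0.05. Between STING-/-+CDDP and STING-/- hearts the macrophage genes Mrc1 (-1.50, adjusted p = 0.0248) and Fcgr1 (-1.39, adjusted p = 0.0240), the latter named after its value was seen, were lower, and no other gene of the lists was called there. In STING-/- against Saline hearts and in the interaction 0 genes of any list were called by limma, with 510 and 1615 of all tested genes at an unadjusted p under 0.05.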

How the data were processed

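The authors deposited a TPM value for every gene in each heart, with 2 decimals and columns that sum to between 999999 and 1000001. The submitters' processing notes name fastp, HISAT and RSEM without versions and the build GRCm38.p5, while the annotation is not given in the sources used here. The authors' 4 columns of means per group were left out. The hearts came from separate animals, and a number shared between groups does not pair them.

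Members and lists were chosen with earlier results of these data known. Positions were taken from GENCODE M21 (GRCm38). A filter of 1 TPM in 3 or more hearts was set, and log2(TPM + 1) of the 12 hearts was fitted with 1 coefficient per group with R 4.3.3 and limma 3.58.1, using moderated variances with a trend and 8 residual degrees of freedom. Tests were two-sided at a threshold of 0.05 after Benjamini-Hochberg adjustment over 13815 genes. The fit was tested on simulated data. Exact permutation tests and correlations were computed with numpy 2.4.6, with ranks and the adjustment over the relations from scipy 1.17.1. Figures were drawn with matplotlib 3.10.9.

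All members are named. From each list up to 3 called genes with the largest change with CDDP or between STING-/-+CDDP and CDDP hearts are named, or the 3 most abundant where none was called, besides the 8 genes most like Adipoq. Further list genes were named after their values were seen, as the text says beside them. Alternative settings were a pseudocount of 0.1, no filter or a filter at 5 TPM, scaling by the median of ratios, quantile normalization, TPM without mitochondrially encoded genes, the compared groups alone, a fit without the trend, a block for the replicate number, arrayWeights, leaving out single hearts and, chosen after seeing the data, Myl7 or Adipoq as a covariate.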

Additional observations from a re-analysis of the deposited data

How the results depend on the processing

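Over the differences of single members and all alternatives, 879 values kept their direction and side of the threshold, 14 lost and 4 gained a call, and 19 changed sign. The cause was not tested. Of the members, 3 to 6 were called between CDDP and Saline hearts when each heart was left out in turn, with 6 without Saline heart 2. Between STING-/-+CDDP and CDDP hearts, 0 to 1 were called with each heart left out, with 0 in 9 of these 12 fits, and 0 without a filter, with the compared groups alone, with arrayWeights and with the replicate number as a block. The adjusted p of Aqp7 in these 4 fits was 0.0912, 0.0790, 0.0540 and 0.0815 by limma. Under the block it changed no other member's call. Hearts of the same number did not deviate together (median correlation -0.013 over 18 pairs, range -0.333 to 0.261). Between CDDP and Saline hearts, arrayWeights called Cfd (3.50, adjusted p = 0.0291).

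With each heart left out, the difference between CDDP and Saline hearts ranged from -0.10 to 1.48 for Adipoq and from -0.30 to 0.52 for Plin1. Between STING-/-+CDDP and CDDP hearts it ranged from -0.14 to 1.15 for Adipoq, -0.26 to 0.03 for Cidea, -0.53 to 1.12 for Cidec, -0.31 to 0.36 for Retn and -0.83 to 0.98 for Cfd. There, arrayWeights gave -0.22 for Retn and -0.05 for Cfd. With Myl7 as a covariate, Adipoq and Plin1 gave -0.12 and -0.29 between CDDP and Saline hearts, Fabp4 and Aqp7 gave 0.01 and 0.04 between STING-/- and Saline hearts, and Cfd gave 0.03 between STING-/-+CDDP and STING-/- hearts. The count of members that varied with Adipoq was 3 after centring on the groups, which is a description only, and 2 to 8 with each heart left out.

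Over all genes, 2610 were called between CDDP and Saline hearts (45.1% higher), 913 with the compared groups alone, 3928 after quantile normalization and 2559 without Saline heart 2 (55.5% higher). Between STING-/-+CDDP and CDDP hearts 168 were called (29.8% higher), 12 without a filter, 651 with the median of ratios (42.2% higher) and 669 after quantile normalization (48.7% higher). The number of hearts, 3 per group, and the unknown depth limit what low genes such as Lep and Ucp1 can show.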
